A study of Homo sapiens with 3 samples.

Results

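The matrix metalloproteinases (MMPs), the ADAMTS proteases and their tissue inhibitors (TIMPs) remodel the extracellular matrix, and 46 of their genes were examined for PHF13 and EZH2 peaks in PANC-1 cells, a line grown from a human pancreatic carcinoma of ductal origin. The 46 genes comprised 23 MMP, 19 ADAMTS and 4 TIMP genes, out of 20163 protein-coding genes. A peak was assigned to a gene when it lay within 5 kb of any annotated transcription start site (TSS) of that gene or inside its gene body. By this rule 23 of 19039 PHF13 peaks and 43 of 21639 EZH2 peaks belonged to these genes.

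MMPs and ADAMTS enzymes are secreted or membrane-anchored zinc proteases. MMPs cut collagens, gelatins, proteoglycans and growth factor precursors, and are known for their part in tumour invasion. ADAMTS enzymes carry thrombospondin repeats and cut proteoglycans, procollagen propeptides or von Willebrand factor. TIMPs bind and block the active site of MMPs, and TIMP3 also blocks several ADAMTS enzymes. Many MMP promoters carry a site for AP-1, the FOS and JUN transcription factor family. EZH2 is the histone H3 lysine methyltransferase of Polycomb repressive complex 2, which is known to occupy CpG-rich gene starts, and PHF13 carries a PHD finger, a domain that binds methylated histone tails.

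The study profiled wild-type PANC-1 cells by chromatin immunoprecipitation and sequencing (ChIP-seq), with 1 library for PHF13, 1 for EZH2 and 1 for input chromatin. No treatment is listed for any of the 3 libraries. Chromatin in all of them was fixed with EGS, which links proteins to proteins, and with formaldehyde. The PHF13 antibody was a rabbit polyclonal serum made for the study, and the lists hold no expression values, so the identity of the cells was not checked here. There was no replicate, so no test was made, and intervals below cover counting error only. The median summit, the position of highest coverage in a peak, held 21 fragments in the whole PHF13 list and 25 in the EZH2 list, so most peaks rest on few fragments.

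Sequences under selected peaks of each list are given first. At the strongest EZH2 summits the bases were rich in CpG dinucleotides, which are in capitals in the following 60-base windows (GRCh37, plus strand). They are the 4 strongest EZH2 peaks, and the windows held 5, 8, 8 and 12 CpG in the order given.
ADAMTS8, chr11:130298112-130298171: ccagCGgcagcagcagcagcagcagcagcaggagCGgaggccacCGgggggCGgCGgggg
ADAMTS7, chr15:79102973-79103032: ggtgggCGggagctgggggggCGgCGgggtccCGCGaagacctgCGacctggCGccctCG
MMP24, chr20:33814637-33814696: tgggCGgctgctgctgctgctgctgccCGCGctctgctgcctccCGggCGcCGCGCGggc
ADAMTS17, chr15:100881555-100881614: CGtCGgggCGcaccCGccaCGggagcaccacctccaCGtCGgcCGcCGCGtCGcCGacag

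PHF13 summits often held the letters of the AP-1 site, TGACTCA or its reverse complement TGAGTCA, in capitals in the next windows (GRCh37, plus strand). These 6 are the PHF13 peaks with AP-1 letters and a −log10 q above 3. They were chosen for the letters, and the strongest PHF13 peak, at ADAMTS18 (−log10 q 25.8), held none.
ADAMTS16, chr5:5136233-5136292: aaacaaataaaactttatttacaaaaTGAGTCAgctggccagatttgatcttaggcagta
MMP20, chr11:102470485-102470544: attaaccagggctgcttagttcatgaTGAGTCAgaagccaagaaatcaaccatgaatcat
ADAMTS18, chr16:77393197-77393256: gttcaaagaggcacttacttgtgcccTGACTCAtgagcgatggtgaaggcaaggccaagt
ADAMTS18, chr16:77332777-77332836: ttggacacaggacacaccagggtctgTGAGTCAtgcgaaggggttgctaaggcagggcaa
TIMP2, chr17:76858485-76858544: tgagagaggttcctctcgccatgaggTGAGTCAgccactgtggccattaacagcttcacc
ADAMTS14, chr10:72475772-72475831: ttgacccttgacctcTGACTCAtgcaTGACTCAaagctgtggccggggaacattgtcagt

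EZH2 peaks were found at 23 of the 46 genes (95% Wilson interval 36.1% to 63.9%), against 30.0% of all protein-coding genes. PHF13 peaks were found at 12 (26.1%, 15.6 to 40.3), against 31.2%. Peaks of both lists were present at 10 genes (21.7%, 12.3 to 35.6), an interval that includes the 12.6% of all genes. Only EZH2 peaks were present at 13 genes (28.3%, 17.3 to 42.5, all genes 17.5%), and only PHF13 peaks at 2, MMP20 and TIMP2 (4.35%, 1.2 to 14.5, all genes 18.6%). The other 21 genes had no peak of either list (45.7%, against 51.4% of all genes). Near a TSS, that is within 5 kb, EZH2 peaks lay at 18 genes (39.1%, 26.4 to 53.5) against 23.6% of all genes, and PHF13 peaks at 6 (13.0%, 6.12 to 25.7) against 21.0%. Both lists had a peak near a TSS of MMP8, MMP2, MMP17 and ADAMTS14. These are 4 of 46 (8.70%, 3.43 to 20.3), an interval that includes the 5.33% of all genes. The share of genes with an EZH2 peak was thus above the share over all genes, and the PHF13 share was below it with an interval that includes it for peaks by the rule and near a TSS alike. With only peaks of −log10 q of at least 5 the PHF13 share turned to above that of all genes, at 15.2% (7.57 to 28.2) against 11%.

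**Figure D1:**
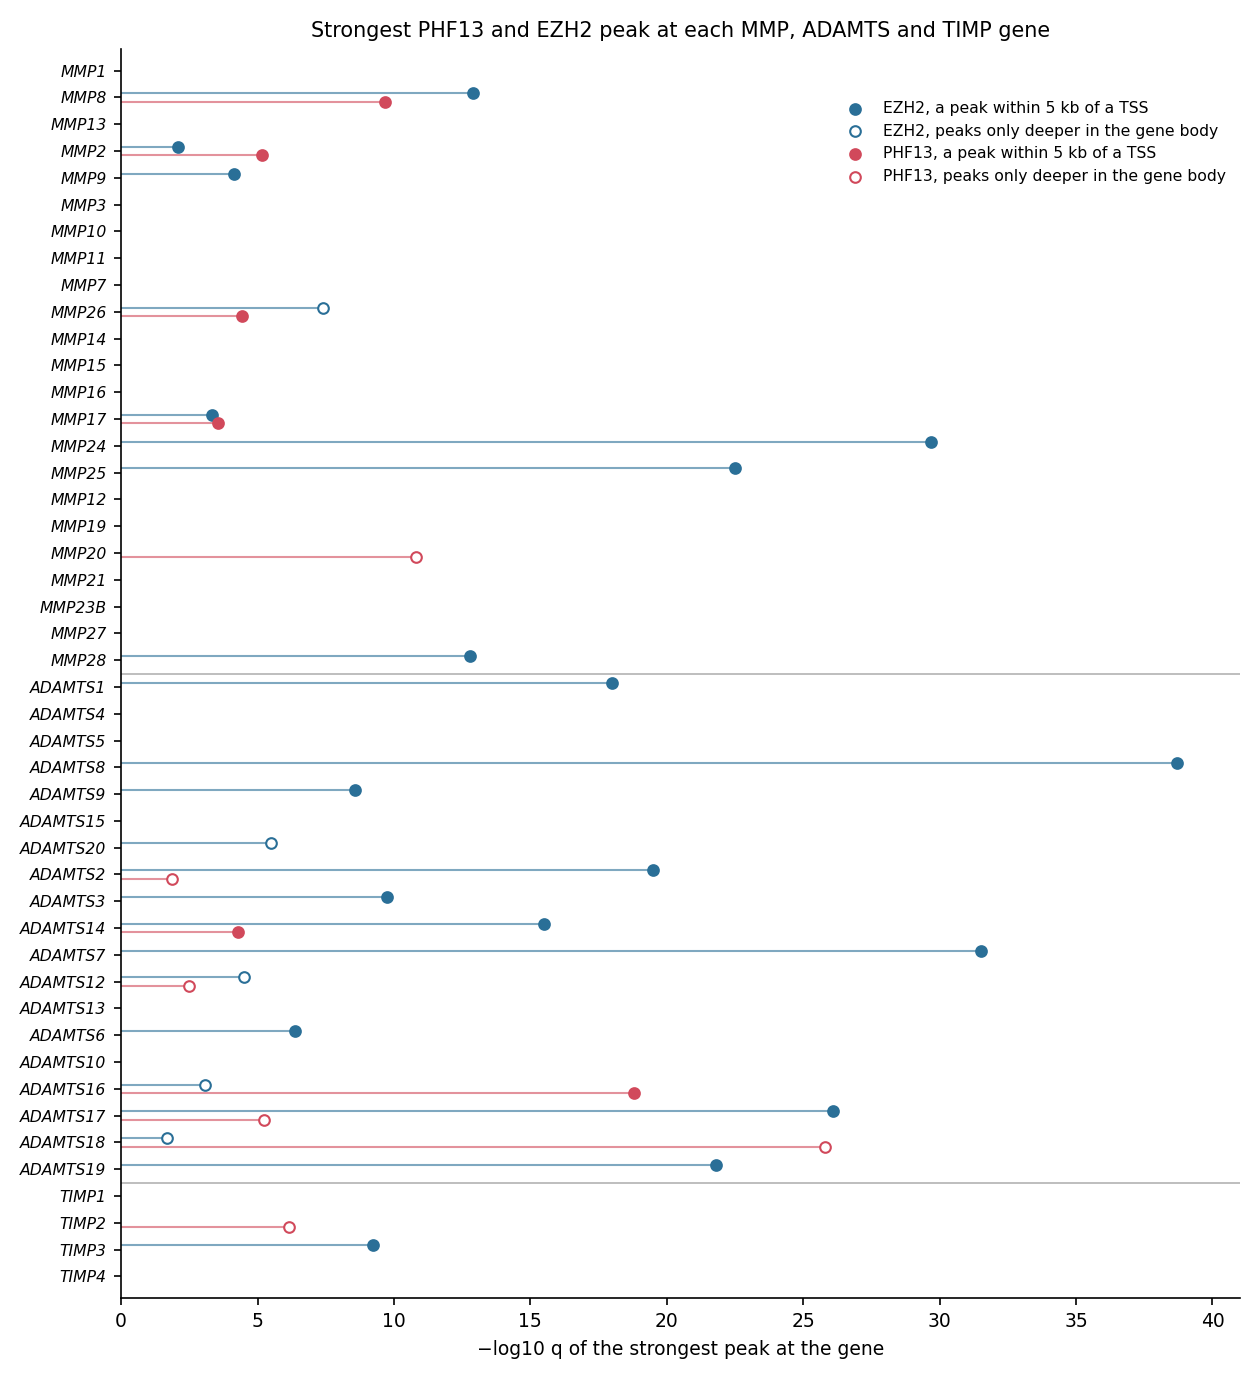
Strongest peak at each gene. The horizontal axis is the −log10 q of the strongest EZH2 (blue) or PHF13 (red) peak by the rule, and filled points mark genes with at least 1 peak of that list within 5 kb of a TSS. EZH2 reached 38.7 at ADAMTS8 and PHF13 25.8 at ADAMTS18, and 21 genes have no point.

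By class, EZH2 peaks lay at 14 of 19 ADAMTS genes (73.7%, 51.2 to 88.2), at 8 of 23 MMP genes (34.8%, 18.8 to 55.1) and at 1 of 4 TIMP genes. PHF13 peaks lay at 6 of 19 ADAMTS genes (31.6%), 5 of 23 MMP genes (21.7%) and 1 of 4 TIMP genes. The MMP shares of both lists had intervals that include the shares over all genes, while the EZH2 interval of the ADAMTS genes lay above it. ADAMTS genes are long, with a median of 172 kb against 14.7 kb for the MMP genes and 27.2 kb for all genes, and a long gene body can hold more peaks by the rule alone. Per Mb of gene body, ADAMTS genes held 10.5 EZH2 and 3.38 PHF13 peaks, MMP genes 7.56 and 8.50, and all genes 7.49 and 6.86. Of the 9 PHF13 peaks behind the MMP value 6 were those of MMP26, whose gene record spans olfactory receptor genes, and without MMP26 it was 3.89 per Mb, below that of all genes (EZH2 9.08). Near a TSS, where gene length enters less, 10 of 19 ADAMTS genes had an EZH2 peak (52.6%, 31.7 to 72.7) and 2 a PHF13 peak. The EZH2 share of all genes near a TSS was 23.6%, and it still rose with gene length. It was 18.0% under 20 kb, 22.5% from 20 to 100 kb and 38.9% over 100 kb, and the ADAMTS interval includes the last value. Length and class were thus not separated near a TSS. Within length groups, EZH2 peaks by the rule lay at 4 of 18 genes under 20 kb (22.2%, all genes 19.1%), 7 of 15 genes of 20 to 100 kb (46.7%, all 29.6%) and 12 of 13 genes over 100 kb (92.3%, all 56.4%). The corresponding PHF13 shares were 5.56%, 26.7% and 53.8%, against 16.5%, 32.6% and 61.8%. The genes over 100 kb include MMP2 and MMP26, the former with a gene record that starts far upstream of its main start, and without both of them the shares were 10 of 11 for EZH2 (90.9%) and 5 of 11 for PHF13 (45.5%).

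**Figure D2:**
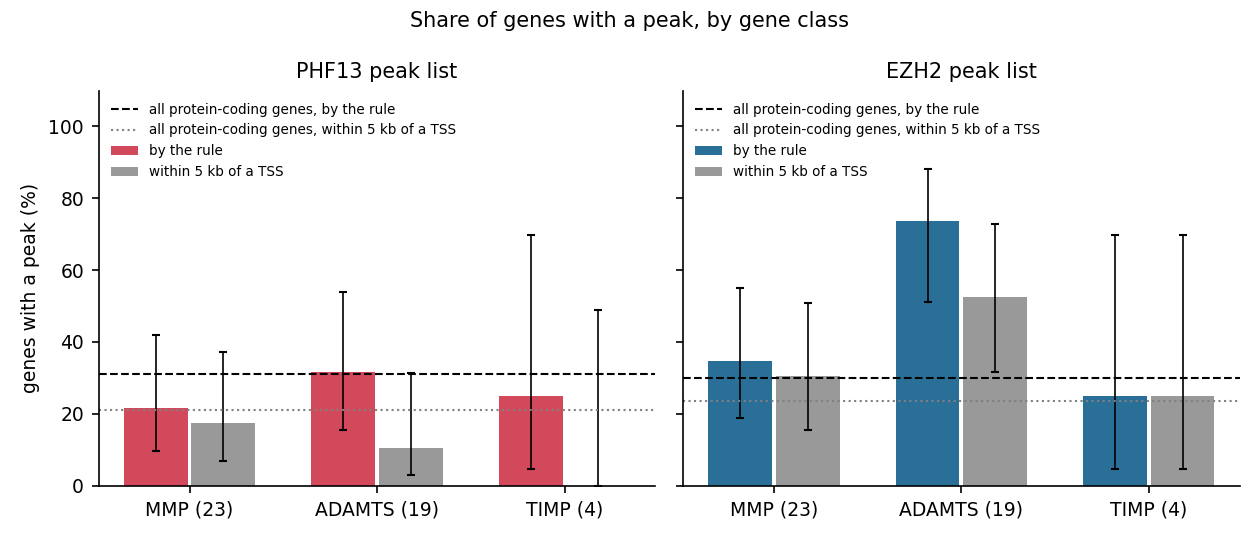
Share of genes with a peak in each class. Bars give the percentage of genes with a PHF13 (left) or EZH2 (right) peak by the rule (coloured) or within 5 kb of a TSS (grey), lines the same over 20163 protein-coding genes, and whiskers 95% Wilson intervals. The ADAMTS bars of the EZH2 panel stand at 73.7% and 52.6%, above both lines.

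Some of the EZH2 peaks at these genes were wide. An EZH2 peak over 1 kb lay near a TSS of 9 of the 46 genes (19.6%, 10.7 to 33.2), against 7.04% of all genes. They were MMP24, MMP25, ADAMTS1, ADAMTS2, ADAMTS7, ADAMTS8, ADAMTS14, ADAMTS17 and ADAMTS19, so 7 were ADAMTS genes (36.8% of 19), while the 2 MMP genes (8.70% of 23) were near the share of all genes. Among the 28 EZH2 peaks near a TSS, 9 exceeded 1 kb (32.1%, 17.9 to 50.7), an interval that includes the 21.2% of such peaks at all genes. The strongest was at ADAMTS8, a protease that cuts the proteoglycan aggrecan, where a 1840 bp peak covered the main start, the start of the Ensembl canonical transcript. Its summit in a coding exon held 181 fragments over a local background of 52.7, a fold enrichment of 3.39 (exact Poisson interval 2.92 to 3.92) with a −log10 q of 38.7. The background there was 11.9 times the floor of 4.42 fragments that the peak caller used for EZH2, and its part in the call was not tested. ADAMTS7, which cuts the cartilage protein COMP, had a 1693 bp peak with 97 fragments, a 4.77-fold enrichment (3.88 to 5.81) and a −log10 q of 31.5. That peak also overlapped a start of the neighbouring gene MORF4L1, so it cannot be given to ADAMTS7 alone. MMP24, a membrane-type MMP, had an 1836 bp peak over its start with 93 fragments and a 4.71-fold enrichment (3.81 to 5.76), with a −log10 q of 29.7.

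The next in order were ADAMTS17 (−log10 q 26.1, 1394 bp), the membrane-type MMP25 (22.5, 1790 bp) and ADAMTS19 (21.8, 1722 bp). Their fold enrichments were 4.45, 4.37 and 4.21, each with an interval that includes the other two. The 3 procollagen N-propeptidases, which trim fibrillar procollagens, all had EZH2 peaks near a TSS (43.9% to 100%), against 23.6% of all genes. With 3 genes this is a description only. ADAMTS2 had a 2195 bp peak (−log10 q 19.5) and ADAMTS14 a 1666 bp peak (15.5), both over the main start, and ADAMTS3 had 2 narrower ones (9.76 and 9.74). ADAMTS1, a proteoglycan-cutting enzyme, had the widest peak of all at 2719 bp, with a −log10 q of 18. Narrower EZH2 peaks lay at the starts of MMP28 (12.8), TIMP3 (9.22), ADAMTS9 (8.59, the strongest of 4) and ADAMTS6 (6.39, the strongest of 3 near a TSS). ADAMTS20, ADAMTS12, ADAMTS16 and ADAMTS18 had EZH2 peaks only away from their TSSs, with −log10 q values of at most 5.48, 4.51, 3.06 and 1.68.

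**Figure D3:**
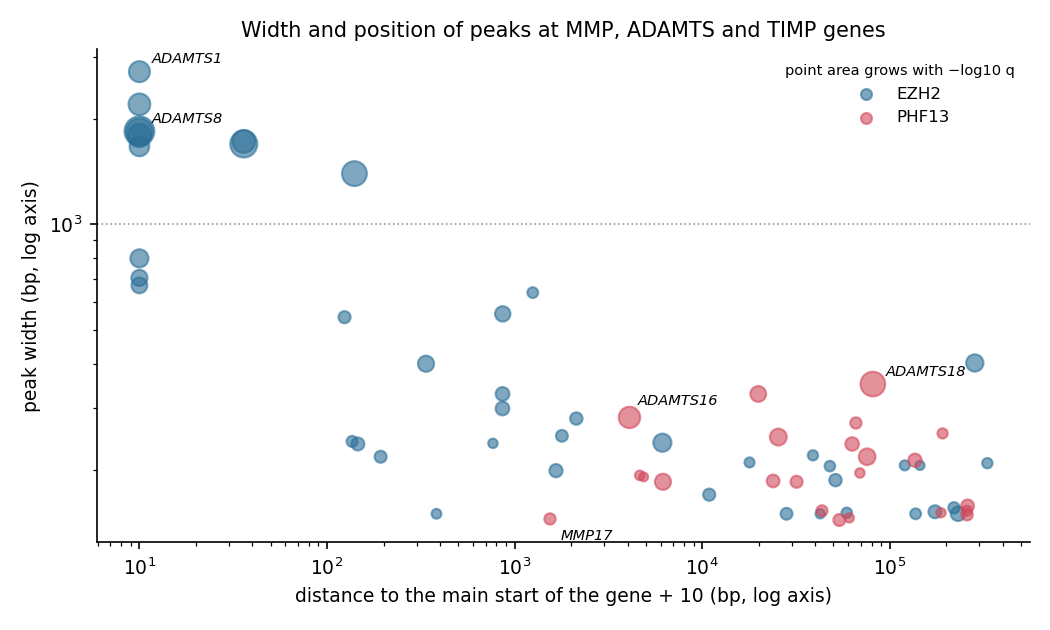
Width and position of the 66 peaks. The horizontal axis is the distance from the peak to the main start plus 10 bp, the vertical axis the peak width in bp, both on log axes, and point area grows with −log10 q. The EZH2 peaks over 1 kb lie within 130 bp of the main start, and no PHF13 peak lies closer than 1533 bp.

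Many EZH2 peaks lay at the main start, and the PHF13 peaks lay away from it. An EZH2 peak lay within 1 kb of the main start of 16 genes (34.8%, all genes 13.4%) and over it in 9 (19.6%, all 6.90%). A PHF13 peak lay within 1 kb of the main start in 0 of 46 genes, which allows a share of up to 7.71% by the Wilson interval, while 10.00% of all genes had one. The closest was at MMP17, 1533 bp away. The median distance to the main start was 854 bp for the 43 EZH2 peaks and 60737 bp for the 23 PHF13 peaks. Of these PHF13 peaks 6 are those of MMP26, whose gene record spans 288 kb. These medians and the summit positions that follow were not computed over all genes. Of the PHF13 summits 19 lay in introns, 3 upstream of the gene and 1 in a coding exon. Of the EZH2 summits 26 lay in introns, 9 in coding exons, 5 in untranslated or non-coding exons and 3 upstream. Over 500 bp at the summit, the CpG observed/expected ratio reached 0.6 in 19 of 43 EZH2 peaks (44.2%, 31.7% of EZH2 peaks at all genes) and in 0 of 23 PHF13 peaks (20.7% of PHF13 peaks at all genes).

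Genes with an EZH2 peak near a TSS had the higher CpG content at the gene start. In 500 bp centred on the annotated gene start, the median CpG ratio was 0.796 for the 18 genes with an EZH2 peak near a TSS and 0.492 for the 28 without, a difference of 0.305. Over all protein-coding genes the medians were 0.727 and 0.716. At the main start, a ratio of at least 0.6 was found in 27 of the 46 genes, and 15 of these had an EZH2 peak near a TSS (55.6%, 37.3 to 72.4), against 25.0% of all genes with such a start. Of the 19 genes with a lower ratio 3 had one (15.8%, all genes 20.6%), namely MMP8, MMP9 and ADAMTS6. By class, MMP genes had one at 5 of 9 CpG-rich starts and 2 of 14 others, and ADAMTS genes at 9 of 16 and 1 of 3. The difference of medians above pools the classes and was not computed within them. CpG-rich starts without an EZH2 peak within 5 kb belonged to MMP11, MMP15, MMP16, MMP23B, ADAMTS5, ADAMTS10, ADAMTS12, ADAMTS15, ADAMTS16, ADAMTS18, ADAMTS20 and TIMP2. The local background moved with position too: its median was 14.6 fragments for EZH2 peaks near a TSS and 5.28 for those away from one, and its part in this pattern was not tested.

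**Figure D4:**
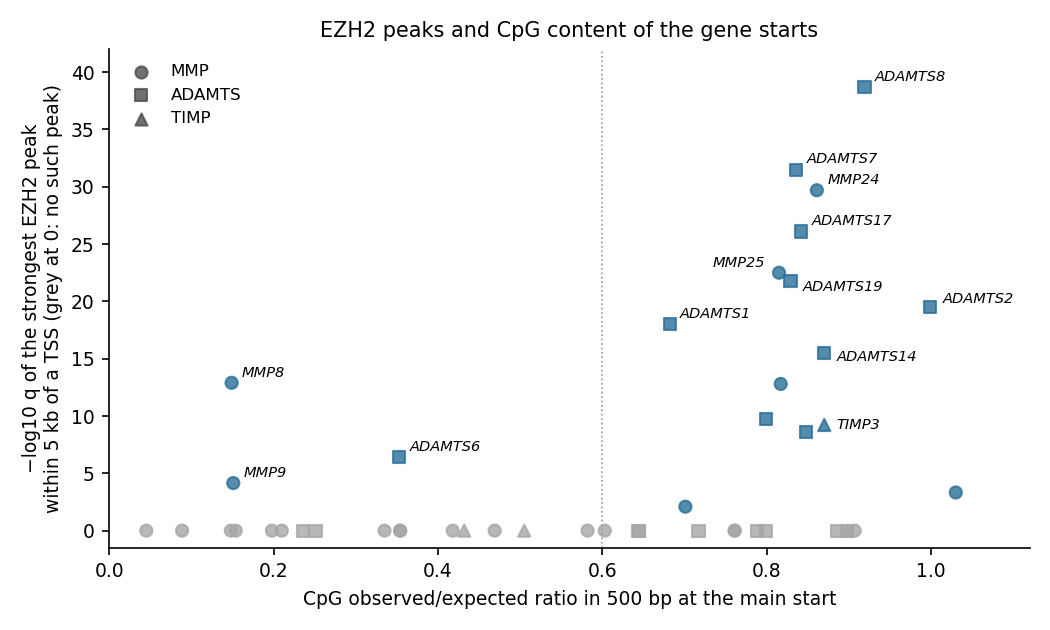
EZH2 at gene starts by CpG content. Each point is a gene, with the CpG observed/expected ratio in 500 bp at the main start on the horizontal axis and the −log10 q of its strongest EZH2 peak within 5 kb of a TSS on the vertical axis, grey at 0 where there is none. The 9 genes with peaks over 1 kb all lie right of 0.6, and MMP8, MMP9 and ADAMTS6 are the blue points left of it.

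PHF13 peaks of these genes were between 144 and 351 bp wide, with a median of 191 bp against 186 bp for PHF13 peaks at all genes. ADAMTS18 had 4, and its strongest, in a coding exon 81133 bp from the main start, held 46 fragments over 4.61, an 8.38-fold enrichment (6.18 to 11.1) with a −log10 q of 25.8. The other three ADAMTS18 peaks had −log10 q values of 10.5, 9.19 and 5.87. ADAMTS16 had 1 peak 4083 bp upstream of its start with 42 fragments, a 6.56-fold enrichment (4.77 to 8.81) and a −log10 q of 18.8. These 2 peaks are the strongest of the list at these genes, and ADAMTS16 and ADAMTS18 had no EZH2 peak near a TSS. MMP20, the enamel protease enamelysin, followed with 1 intronic peak (4.45-fold, −log10 q 10.8), then MMP8, the neutrophil collagenase (4.57-fold, 9.69), and TIMP2, an inhibitor that also takes part in the activation of MMP2 (3.90-fold, 6.15, intronic). The ADAMTS17 peak (4.05-fold, 5.25) lay in sequence that is not single-copy: the median 24-mer at its summit occurs 2102 times in the genome. In all, 4 of the 23 PHF13 peaks lay in such sequence (17.4%, 6.98 to 37.1, all genes 22.8%). The others were at MMP26 and at ADAMTS2, where the weaker peak (−log10 q 1.70) had a median 24-mer that occurs 22263 times. Weak PHF13 peaks lay at MMP2, MMP17, MMP26, ADAMTS2, ADAMTS12 and ADAMTS14, with −log10 q values of at most 5.18, 3.55, 4.42, 1.87, 2.48 and 4.27.

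AP-1 letters were present in 200 bp at the summit of 9 of 23 PHF13 peaks (39.1%, 22.2 to 59.2), against 12.3% of PHF13 peaks at all genes. By position, they were in 7 of 17 peaks away from a TSS (41.2%, 21.6 to 64.0, all genes 14.6%). Near a TSS they were in 2 of 6 (33.3%, 9.68 to 70.0), an interval that includes the 9.75% at all genes. Of the 23 peaks 10 had a −log10 q of 5 or more (43.5%, all genes 26.1%), and among such peaks 5 of 10 held the letters, against 25.2% at all genes. The share at all genes was thus higher among strong peaks as well, and the part of peak strength in the 39.1% was not tested. With 10 strong peaks, 5 of 10 against 25.2% is a description only. In windows of the same size 1000 bp to either side, 1 of 46 held them (2.17%). In the windows printed above, the centre of the site lay 5 bp from the summit at ADAMTS16, 4 bp at MMP20, 27 and 46 bp at ADAMTS18 and 55 bp at TIMP2, and ADAMTS14 held 2 copies. The remaining 3 were weak peaks at MMP26 (2) and ADAMTS2. The 9 peaks belong to 7 of the 12 genes with a PHF13 peak (58.3%, 32.0 to 80.7, all genes 17.7%), so they are not independent. The strongest peak, at ADAMTS18, had no AP-1 letters. In 200 bp at the summit, 0 of the 43 EZH2 peaks held AP-1 letters (upper Wilson bound 8.20%), against 1.89% of EZH2 peaks at all genes. In 400 bp the shares were 2.33% and 4.27%. The rest of the wide EZH2 peaks was not searched.

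AP-1 letters were also sought at the gene starts themselves. In 500 bp at the main start, 8 of the 46 genes held the letters (17.4%, 9.09 to 30.7), against 4.84% of all genes, and 0 of these 8 had a PHF13 peak near a TSS (upper bound 32.4%), against 17.3% of all genes with the letters there, so a lower share was not detectable with 8 genes. Of these, MMP1, MMP3, MMP7, MMP12 and MMP13 lie in the MMP cluster of chromosome 11 described below. They are not independent, and the intervals do not allow for that. The windows are shown on the strand of the gene (GRCh37), because they carry the site for which MMP promoters are known. The site began 71 bases upstream of the start at MMP1, the interstitial collagenase, 70 at MMP3, a stromelysin, 79 at MMP9, a gelatinase, 67 at MMP7, matrilysin, 78 at MMP12, the macrophage elastase, 75 at MMP19 and 51 at MMP13, a collagenase. At ADAMTS19 it began 119 bases downstream, inside the 1722 bp EZH2 peak there but outside the 200 bp at the summit of that peak.
MMP1, chr11:102668945-102668973, minus strand: gttataaagcaTGAGTCAgacagcctctg
MMP3, chr11:102714393-102714421, minus strand: gaaagcaaggaTGAGTCAagctgcgggtg
MMP9, chr20:44637457-44637485, plus strand: accctgaccccTGAGTCAgcacttgcctg
MMP7, chr11:102401528-102401556, minus strand: aaacactcaaaTGAGTCAcctatttccac
MMP12, chr11:102745773-102745801, minus strand: gatatcaactaTGAGTCActcataggatt
MMP19, chr12:56236778-56236806, minus strand: tatctcttggcTGAGTCAcctccctctgc
MMP13, chr11:102826495-102826523, minus strand: tccataagtgaTGACTCAccattgcaggc
ADAMTS19, chr5:128796099-128796127, plus strand: cgagatgcgccTGACTCAcatctgctgct

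Both gelatinases had EZH2 peaks near a TSS, and these were weak. MMP2 had 2, with 17 and 16 fragments, fold enrichments of 2.78 (1.68 to 4.36) and 2.68 (1.6 to 4.25) and −log10 q values of 2.09 and 1.77, 373 and 756 bp from the main start. Its PHF13 peak (22 fragments, 4.02-fold, 2.58 to 5.99, −log10 q 5.18) lay 23845 bp from the main start and 2147 bp from another annotated start inside the gene. MMP9 had 1 EZH2 peak, in an intron 1776 bp from its start, with 27 fragments, a 3.02-fold enrichment (2.03 to 4.34) and a −log10 q of 4.15, and no PHF13 peak within 36914 bp of its start. MMP17, a membrane-type MMP anchored by glycosylphosphatidylinositol, had an EZH2 peak 126 bp from the main start (20 fragments, 3.18-fold, 2.0 to 4.84, −log10 q 3.33) and a PHF13 peak 1533 bp from it (24 fragments, 3.14-fold, 2.05 to 4.61, −log10 q 3.55). At ADAMTS14 the PHF13 peak near a TSS was weak (17 fragments, 2.75-fold, 1.67 to 4.31, −log10 q 1.89), 4631 bp from the start that the EZH2 peak covered.

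Overlap between the lists was found at 1 gene only. Of the 23 PHF13 peaks 1 shared bases with an EZH2 peak (4.35%, 0.772 to 21.0), against 5.34% of PHF13 peaks at all genes. It lay upstream of MMP8, 4067 bp from its closest annotated start and 6163 bp from the main start, and the EZH2 peak (39 fragments, 4.83-fold, 3.47 to 6.56, −log10 q 12.9) covered all 185 bp of it. The summits were 21 bp apart. At the 10 genes with peaks of both lists, the closest summits were between 21 and 141391 bp apart, with a median of 22783 bp.

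MMP8 belongs to a cluster of 9 MMP genes (MMP7, MMP20, MMP27, MMP8, MMP10, MMP1, MMP3, MMP12 and MMP13) in 435 kb of chromosome 11 (chr11:102391239-102826461). The cluster held 7 PHF13 and 5 EZH2 peaks. The density was 16.1 PHF13 peaks per Mb (exact Poisson interval 6.47 to 33.1), against 6.15 genome-wide. For EZH2 it was 11.5 per Mb (3.73 to 26.8), against 6.99. The genome-wide values divide by the whole genome length, including unsequenced gaps where no peak can be called, so they are too low. The lower PHF13 bound of 6.47 is close to 6.15, so a density above that of the genome is not shown. The PHF13 peak at chr11:102696873 was also not single-copy (copy number 7). By the rule the peaks of the cluster reached MMP8 and MMP20 only, and the other 7 genes had none. The strongest peak outside the rule was an EZH2 peak of 938 bp (−log10 q 8.21) in the transcribed pseudogene WTAPP1, 6265 bp from the closest start of MMP3. The other peaks outside the rule had −log10 q values of at most 5.46.

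**Figure D5:**
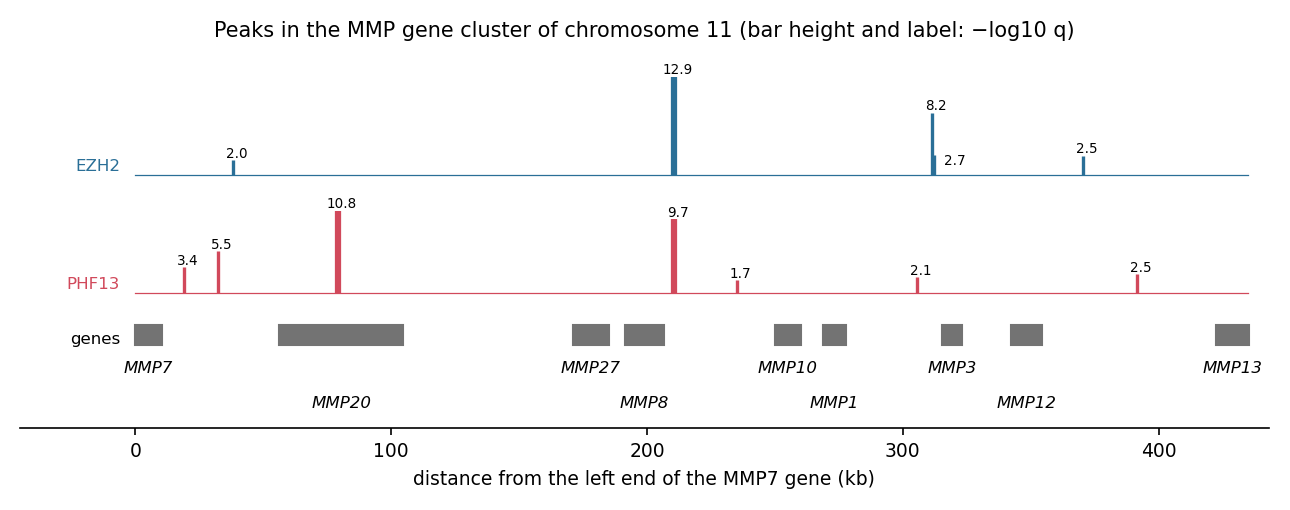
Peaks in the MMP cluster of chromosome 11. The horizontal axis is the distance in kb from the left end of the MMP7 gene, grey boxes are genes, and bar heights give −log10 q (EZH2 blue, PHF13 red, thick where the peak belongs to a gene by the rule). The highest bars of the lists stand at MMP8 (EZH2, 12.9) and MMP20 (PHF13, 10.8).

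The matrilysin MMP26 needs a limit of its own. Its gene record spans 288 kb and contains olfactory receptor genes, and 4 of its 6 PHF13 peaks lay closer to a TSS of another gene. Its 1 EZH2 peak (−log10 q 7.40) had a median 24-mer that occurs 7364 times in the genome. The PHF13 peaks of MMP26 at chr11:4791923 and chr11:4916935 were not single-copy either, with median 24-mers that occur 23482 and 8 times. The genes with no peak of either list were MMP1, MMP3, MMP7, MMP10, MMP11, MMP12, MMP13, MMP14, MMP15, MMP16, MMP19, MMP21, MMP23B and MMP27 among the MMPs, ADAMTS4, ADAMTS5, ADAMTS10, ADAMTS13 and ADAMTS15 among the ADAMTS genes, and TIMP1 and TIMP4. They include the 3 stromelysins and the membrane-type MMP14, MMP15 and MMP16. MMP14 is the activator of MMP2 at the cell surface, and the closest EZH2 and PHF13 peaks lay 110556 and 503025 bp from its starts.

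Related proteases, inhibitors and substrates were counted by the same rule. Of 8 matrix proteins that these enzymes cut, 7 had an EZH2 peak and 1 a PHF13 peak, and the highest −log10 q values were those of wide EZH2 peaks at FBN1 (fibrillin, 17.5), FN1 (fibronectin, 17.3) and VCAN (versican, 14.3). Of 12 ADAM proteases 7 had an EZH2 peak and 6 a PHF13 peak, led by EZH2 at ADAM23 (35.4), ADAM19 (17) and ADAM11 (7.16). Of 7 ADAMTS-like proteins, which lack the protease domain, 6 had a PHF13 and 3 an EZH2 peak, led by PAPLN (EZH2, 19.3), THSD4 (PHF13, 17.5) and ADAMTSL4 (PHF13, 7.12). Of 5 astacin proteases 3 had an EZH2 and 1 a PHF13 peak, led by EZH2 at TLL2 (19.5), TLL1 (7.72) and MEP1A (3.4). Of 7 other inhibitors and inducers 4 had an EZH2 and 3 a PHF13 peak, led by A2M (EZH2, 16.6), SPOCK3 (PHF13, 8.94) and SPOCK1 (PHF13, 6.97). These counts stand beside the 30.0% and 31.2% of all genes, and the lists are too short for more than a description.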

How the data were processed

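The 2 peak lists, of 1 PHF13 and 1 EZH2 library, were analysed; the input entered as the control of peak calling, and neither its coverage nor any reads were used here. According to the methods and the labels, the authors trimmed reads with Trim Galore 0.4.1, aligned them to hg19 with Bowtie2 2.4.1, took out duplicate reads by Picard and called peaks for each antibody alone with MACS2 2.2.7.1. The deposited fold is the ratio of ChIP pileup to local background at the summit, each with a pseudocount of 1, and p and q were deposited as −log10 values. As deposited, the score equals 10 times the −log10 q rounded down, apart from 4 peaks in each list. The lowest −log10 q is 1.30 for PHF13 and 1.31 for EZH2, looser for PHF13 than the methods state, and for EZH2 the methods describe broad peaks while the file is a narrowPeak list, so the lists were used as deposited.

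Fold and p were solved for whole fragments and background, which gave 1 solution for 100% of peaks (tested on simulated data). Library totals are unknown, so precision comes from these fragments alone. Genes and starts came from GENCODE release 44 mapped to GRCh37, and sequences from the GRCh37 genome. AP-1 letters (both strands) were sought in 200 bp at the summit, CpG ratio and GC in 500 bp, and copy number from 24-mers in 100 bp at the summit. Intervals are 95% Wilson or exact Poisson intervals. Members and gene lists were chosen with earlier results of these data known. Every gene is named. Values are given in full for those with peaks of both lists near a TSS, the 6 strongest of each list, MMP2, MMP9, MMP17 and the chromosome 11 cluster, and of the other lists for the 3 with the highest −log10 q. Peak limit, starts, distance, copy number, position, overlap and window sizes were varied. Python 3.11.15, numpy 2.4.6, pandas 2.3.3, scipy 1.17.1, numba 0.67.0 and matplotlib 3.10.9 were used.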

Additional observations from a re-analysis of the deposited data

How the results depend on the processing

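Of 55 recomputed values, 48 stayed within 1.5 times the reported count or difference, or within the interval of the reported share, and 7 moved. Only the CpG difference could change sign, and it did not. These labels do not compare the genes with all genes. With only peaks of −log10 q of at least 5, the genes with a PHF13 peak fell to 7 by the rule and 3 near a TSS, and those with peaks of both lists to 2 by the rule (ADAMTS17 and MMP8) and 1 near a TSS (MMP8), since fewer peaks remain. The shares of all genes at that limit were 11%, 6.62%, 2.80% and 1.21%. The EZH2 counts were 17 and 15 (37.0% and 32.6%, all genes 16.4% and 14.3%). With a distance of 1 kb, 0 genes had a PHF13 peak near a TSS and 0 had peaks of both lists, against 13.6% and 2.01% of all genes, while 16 had an EZH2 peak near a TSS. At 10 kb the share with peaks of both lists near a TSS was 8.70%, below the 9.14% of all genes. At 5 kb it was above (8.70% against 5.33%). AP-1 letters were in 26.1% of PHF13 peaks within 100 bp (all genes 8.51%), in 47.4% of single-copy peaks (14.9%) and in 5 of the 10 with a −log10 q of at least 5 (25.2%). The CpG difference ranged from 0.301 to 0.346, the latter at the main start. Without MMP26 the PHF13 density in MMP gene bodies moved from 8.50 to 3.89 peaks per Mb. The main start and leaving out MMP2 or MMP26 were chosen after seeing the data. No paired analysis was possible because each antibody has 1 library and the labels give no replicate numbers.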

Other observations

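Neighbouring ADAMTS genes did not carry EZH2 peaks alike. These pairs were chosen after their values were seen. On chromosome 11, ADAMTS8 carried the strongest EZH2 peak among the 46 genes (−log10 q 38.7), and ADAMTS15, whose start lies 19241 bp from that peak and is CpG-rich as well (ratio 0.717 against 0.919), had none. On chromosome 21, ADAMTS1 carried the widest EZH2 peak (2719 bp), and ADAMTS5, with a CpG ratio of 0.644 at its start against 0.682 for ADAMTS1, had no EZH2 peak within 34943 bp. With 1 EZH2 library neither difference has a replicate check.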
